A study of Mus musculus with 32 samples.

Results

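A set of 8 stress-response genes was followed through mouse leukaemia cells and haematopoietic stem cells (HSCs) that had lost, kept or regained the transcriptional regulator PRDM16. They are the 3 GADD45 genes (Gadd45a, Gadd45b and Gadd45g), the secreted stress factor Gdf15, the cell-cycle regulator Sertad1, and p53 itself (Trp53) with its targets Mdm2 and Ccng1. They were chosen by symbol with earlier results of these data known, so shares of all genes set beside them are descriptive. The set makes up 8 of the 21509 genes named in all 4 deposited count tables. All 8 were found in every table and all 8 passed the filter on low counts in every comparison.

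GADD45 proteins are small nuclear and cytoplasmic proteins without enzyme activity of their own that bind the stress kinase MEKK4 (Map3k4), the sliding clamp PCNA and the CDK1-cyclin B complex, and are induced by DNA damage, growth arrest or inflammatory signals. Gadd45a is a classical p53 target, Gadd45b is strongly induced by NF-kB and TGF-beta signalling, and Gadd45g responds to cytokines and differentiation cues. p53 is held low by the ubiquitin ligase MDM2, which p53 itself induces, and Ccng1 encodes cyclin G1, another p53 target that feeds back on MDM2. Gdf15 encodes a secreted member of the TGF-beta superfamily induced by p53 and by the integrated stress response. Sertad1 encodes a co-regulator of E2F/DP transcription that also binds CDK4. Immediate early genes, used below as a comparison list, are switched on within minutes of growth signals, stress or tissue handling.

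The 32 libraries formed 10 groups, described as independent replicates. Of these, 12 came from leukaemia cells driven by the MLL-AF9 fusion and sorted from moribund mice: wild type for Prdm16 with empty vector (WT+EV), Prdm16 knockout carrying the same vector (KO+EV), and knockout cells overexpressing full-length PRDM16 (KO+f) or the short form that lacks the PR domain (KO+s), 3 libraries each. All 4 leukaemia groups share the fusion oncogene. The other 20 were HSCs sorted as Lin-cKit+Sca1+CD48-: adult bone marrow labelled wild type or Prdm16 knockout (4 and 4), fetal liver wild type or total knockout (3 and 3), and fetal liver wild type or knockout for f-PRDM16 with s-PRDM16 retained (3 and 3). The marrow and total-knockout fetal groups carry the prefix VAV in the labels, and the f-PRDM16 groups the prefix 47bp, neither of them explained there. The labels give no animal ages, state no driver of the deletion, and do not say whether animals were pooled or whether leukaemia replicates came from separate transductions, so p-values measure the spread between these libraries. In bulk RNA, fewer cells of a type and less RNA per cell cannot be told apart.

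Depth ran from 16353584 to 23785307 counts in leukaemia, 22490805 to 29343602 in adult marrow, 26715538 to 33246080 in the total-knockout fetal table and 35503288 to 44952448 in the f-PRDM16 fetal table. Prdm16 was at 0.429 to 1.04 CPM (counts per 1000000 counts of the library) in WT+EV, 0 to 0.0951 in KO+EV, 242 to 335 in KO+f and 179 to 295 in KO+s, so both add-backs stood far above the wild-type level. In adult marrow it did not separate the labels, at 10.5 to 53.4 CPM in wild type and 13.4 to 41.3 in knockout. A count over the whole gene can include reads outside a deleted part and so checks nothing there. In fetal liver it was 25.5 to 39.8 CPM against 10.8 to 24.6 (wild type against total knockout) and 13.2 to 34.7 against 6.29 to 9.81 (wild type against f-PRDM16 knockout). All 12 HSC markers listed were detected in each HSC group, while Cd48, excluded by the sort, reached 162 and 181 CPM in f-PRDM16 fetal libraries, wild type and knockout. KO+EV replicate 3 stood apart in leukaemia: 14 granulocyte markers summed to 54503 CPM there against 13212 and 13234 in the other KO+EV libraries. Among HSCs the same sum reached 13483 CPM in total-knockout fetal replicate 3 and 47776 in f-PRDM16-knockout fetal replicate 3. The marker Mpo alone took 3.12% of all counts in KO+EV replicate 3 and 2.40% in f-PRDM16-knockout fetal replicate 3. These sums therefore weigh Mpo heavily and do not show that all markers were high.

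The upstream sequences of the GADD45 genes and Sertad1 are shown because Gadd45a, Gadd45b and Sertad1 carried most of the changes that passed the main test below. Gadd45g is shown with its family. The bases come from RefSeq promoters on GRCm38.p6, while the counts were made on mm9 and joined by symbol only. Each window starts 250 bases before the RefSeq start site and stops before the earliest GENCODE transcript start, so no transcribed base is included. Gadd45a lies at chr6:67037458-67037657 (minus strand), Gadd45b at chr10:80929841-80930072 (plus), Gadd45g at chr13:51846425-51846674 (plus) and Sertad1 at chr7:27486703-27486909 (plus). Capitals mark every match, on either strand, to the motifs described after the sequences.
Gadd45a: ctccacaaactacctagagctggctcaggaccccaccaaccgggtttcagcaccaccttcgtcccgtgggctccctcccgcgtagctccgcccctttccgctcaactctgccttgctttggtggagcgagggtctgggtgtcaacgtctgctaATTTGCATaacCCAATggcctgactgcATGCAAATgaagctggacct
Gadd45b: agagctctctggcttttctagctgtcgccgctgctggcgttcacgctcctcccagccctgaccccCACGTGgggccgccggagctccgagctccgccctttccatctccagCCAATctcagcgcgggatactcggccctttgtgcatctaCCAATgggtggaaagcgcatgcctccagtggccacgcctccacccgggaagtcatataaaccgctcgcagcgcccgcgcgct
Gadd45g: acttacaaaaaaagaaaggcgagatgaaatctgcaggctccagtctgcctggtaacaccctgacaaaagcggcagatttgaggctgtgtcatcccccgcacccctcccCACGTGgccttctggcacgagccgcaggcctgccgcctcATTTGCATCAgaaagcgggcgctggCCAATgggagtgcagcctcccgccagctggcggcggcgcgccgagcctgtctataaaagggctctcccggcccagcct
Sertad1: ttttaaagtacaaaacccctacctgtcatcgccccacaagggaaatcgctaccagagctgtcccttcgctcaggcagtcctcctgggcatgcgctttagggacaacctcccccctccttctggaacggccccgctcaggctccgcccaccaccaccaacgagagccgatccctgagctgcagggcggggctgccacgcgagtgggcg

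Gadd45a held the octamer ATTTGCAT on both strands, at 97 and 70 bases before the start site, and Gadd45g held it once. Only 1.60% of 32851 windows of 250 bases held that octamer. The E-box CACGTG occurred in Gadd45b, Gadd45g and a downstream Gdf15 start site, against 6.02% of windows. CCAAT occurred in windows of 7 of the 8 members, for Gdf15 only at the downstream start site, but also in 33.9% of all windows. In Gadd45g the octamer overlaps a TGATGNAA match (C/EBP-ATF, 3.45% of windows). A p53 half-site by its consensus was found in the windows of Gadd45a, Mdm2, Ccng1 and Trp53, against 7.13% of windows. That of Gadd45a lies inside the bases not printed. No member window held TGACGTCA (CRE), TGANTCA (AP-1), a CArG box or an NF-kB consensus match, which were in 1.55%, 6.75%, 1.47% and 3.90% of windows. The Sertad1 window held none of the 9 motifs. A match describes letters in the window and is not shown to be a binding site.

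In the leukaemia cells, Gadd45a and Sertad1 had their lowest levels without PRDM16, and Gadd45b its highest. Gadd45a was at 19.8, 28.0 and 62.2 CPM in WT+EV, 15.9, 8.99 and 16.3 in KO+EV, 30.0, 22.6 and 17.9 in KO+f, and 47.6, 33.6 and 51.3 in KO+s. Every KO+EV library lay below every library of the other 3 groups, and WT+EV replicate 3 was the highest of all 12. Gadd45b was at 29.7, 22.4 and 21.03 CPM in WT+EV, 30.3, 31.0 and 28.5 in KO+EV, 11.3, 13.0 and 23.4 in KO+f, and 11.9, 10.99 and 13.6 in KO+s. Here the order was the opposite: KO+EV was high and tight, KO+s low and tight, and KO+f replicate 3 sat within the wild-type range. Sertad1 was at 15.1, 15.7 and 19.1 CPM in WT+EV, 9.29, 7.61 and 9.07 in KO+EV, 19.3, 14.5 and 17.0 in KO+f, and 26.99, 17.6 and 26.7 in KO+s. As for Gadd45a, KO+EV lay below all other groups without overlap.

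**Figure D1:**
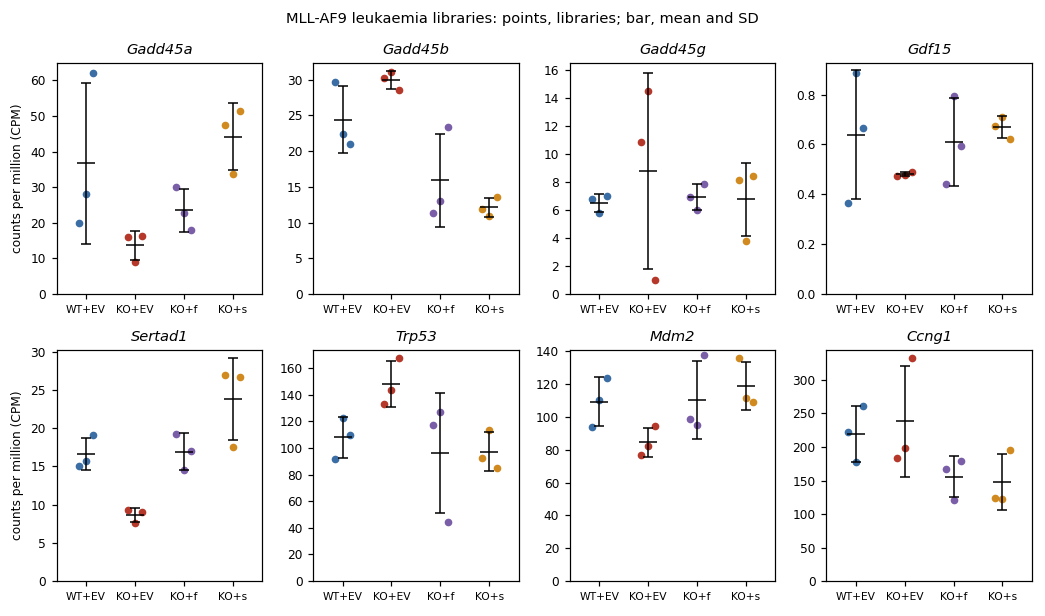
CPM of the 8 members in the 12 leukaemia libraries, 1 panel per gene, with points for libraries and bars for the mean and SD. KO+EV is the lowest group for Gadd45a and Sertad1 and the highest for Gadd45b, and 1 KO+EV library holds almost no Gadd45g.

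Gadd45g and Gdf15 behaved otherwise. Gadd45g was at 6.79, 5.78 and 6.96 CPM in WT+EV, 10.8, 14.5 and 0.980 in KO+EV, 6.90, 6.0 and 7.83 in KO+f, and 8.16, 3.76 and 8.39 in KO+s. The lowest value, 20 counts, came from KO+EV replicate 3, the library with the high granulocyte sum, and the other KO+EV libraries were the highest of the 12. Gdf15 was close to silent, with 6 to 17 counts (0.367 to 0.885 CPM) in every leukaemia library, so a change in it was hardly measurable at this depth.

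Of the p53 genes, Trp53 itself was at 92.0, 123 and 109 CPM in WT+EV, 133, 143 and 167 in KO+EV, 117, 127 and 44.4 in KO+f, and 92.5, 114 and 85.3 in KO+s. KO+EV lay above every other library, and KO+f replicate 3 was the lowest by a wide margin. Mdm2, the ubiquitin ligase that restrains p53, was at 94.1, 110 and 124 CPM in WT+EV, 77.0, 82.3 and 94.5 in KO+EV, 98.5, 95.2 and 138 in KO+f, and 136, 112 and 109 in KO+s. Ccng1 was at 222, 177 and 261 CPM in WT+EV, 183, 199 and 333 in KO+EV, 167, 121 and 179 in KO+f, and 124, 123 and 196 in KO+s. For Mdm2 the KO+EV range overlapped that of WT+EV through KO+EV replicate 3 and lay below both add-backs. The Ccng1 libraries of KO+EV were above those of KO+f but overlapped KO+s.

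The first comparison asks what loss of Prdm16 does in the leukaemia. None of the 8 members passed an adjusted p of 0.05 in edgeR's quasi-likelihood test (Benjamini-Hochberg over all genes) in KO+EV against WT+EV, where 2.1% of 12958 genes did. Sertad1 came closest, at a log2 change of -0.92 ± 0.21 (SE; adjusted p = 0.0508), a level 1.89-fold lower. Gadd45a was at -1.39 ± 0.41 (adjusted p = 0.105), 2.62-fold lower in the fit. DESeq2 passed both, at adjusted p = 0.00384 for Sertad1 and 0.0143 for Gadd45a, and 6.12% of the genes it tested. At an unadjusted p under 0.05 edgeR counted these same 2 members and 18.1% of genes. The ranges of 3 members did not overlap between the groups, Gadd45a and Sertad1 lower and Trp53 higher, against 23.2% of genes. Trp53 was at 0.48 ± 0.31 (adjusted p = 0.451) and Mdm2 at -0.34 ± 0.18 (adjusted p = 0.344). Gadd45b (0.33 ± 0.24), Gadd45g (0.41 ± 0.63), Gdf15 (-0.40 ± 0.41) and Ccng1 (0.16 ± 0.29) had adjusted p from 0.516 to 0.82. The median over the members was -0.09 and over all genes 0.00.

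With full-length PRDM16 restored, Sertad1 rose and Gadd45b fell. In KO+f against KO+EV 2 of 8 members passed, 1 in each direction, against 11.3% of genes, 6.88% higher and 4.39% lower. Sertad1 rose by 0.94 ± 0.21 (1.91-fold; adjusted p = 0.0191) and Gadd45b fell by 0.94 ± 0.24 (1.92-fold; adjusted p = 0.0298). With these groups fitted alone the adjusted p was 0.0584 for Sertad1 and 0.117 for Gadd45b. Sertad1 did not pass without KO+EV replicate 2 (adjusted p = 0.0769) or KO+f replicate 1 (0.0660). Gadd45b passed only when KO+f replicate 3 was left out, at -1.33 (adjusted p = 0.00192); without any other single library of KO+EV or KO+f its adjusted p was 0.0538 to 0.116. Gadd45a (0.74 ± 0.41, adjusted p = 0.254), Mdm2 (0.35 ± 0.18, 0.217), Trp53 (-0.66 ± 0.31, 0.19) and Ccng1 (-0.66 ± 0.29, 0.151) did not pass, although none of the 4 overlapped between the groups. Gadd45g (-0.33 ± 0.63, 0.761) and Gdf15 (0.31 ± 0.41, 0.654) did not pass either. With Sertad1 and Gadd45b that makes 6 members without overlap, 3 higher and 3 lower, against 34% of genes.

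With the short form restored, Sertad1 rose and Gadd45b fell as well, and Gadd45a and Mdm2 rose. In KO+s against KO+EV 4 of 8 members passed, 3 higher and 1 lower, in a comparison in which 32.4% of all genes passed, 15.9% higher and 16.6% lower. The CPM ranges of 6 members did not overlap, against 51.1% of genes. Gadd45a rose by 1.77 ± 0.41 (3.4-fold; adjusted p = 0.00823), Sertad1 by 1.54 ± 0.22 (2.92-fold; adjusted p = 0.000599) and Mdm2 by 0.57 ± 0.18 (1.49-fold; adjusted p = 0.0289). Gadd45b fell by 1.21 ± 0.24 (2.32-fold; adjusted p = 0.00365), so these GADD45 paralogues changed in opposite directions. Gadd45a, Gadd45b and Sertad1 passed in all 6 fits that left out 1 library. Mdm2 did not pass without KO+EV replicate 1 (adjusted p = 0.0941), KO+EV replicate 2 (0.0918) or KO+s replicate 1 (0.111). Ccng1 (-0.62 ± 0.29, adjusted p = 0.118), Trp53 (-0.53 ± 0.31, 0.219), Gdf15 (0.56 ± 0.41, 0.317) and Gadd45g (-0.24 ± 0.63, 0.803) did not pass. With these groups fitted alone Trp53 passed too, at -0.54 (adjusted p = 0.0398). The members' median was 0.16 and that of all genes -0.01.

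Set directly against each other, the add-backs gave no passing difference in the members. In KO+s against KO+f 0 of 8 passed by edgeR and by DESeq2 (3.81% and 10.3% of genes), and 2 had an unadjusted p under 0.05 (22.5% of genes). These were Gadd45a at 1.03 ± 0.40 (adjusted p = 0.164; 0.0455 with these groups fitted alone) and Sertad1 at 0.61 ± 0.21 (0.115). For Gadd45a alone of the 8 the KO+s libraries lay apart from all KO+f libraries (33.6% of genes). Gadd45b was at -0.27 ± 0.24 (0.548), Mdm2 at 0.22 ± 0.18 (0.486), and Trp53, Ccng1, Gadd45g and Gdf15 were between 0.04 and 0.25. The 3 comparisons with KO+EV share its libraries, and those with KO+f or KO+s share theirs, so the values are set side by side only.

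Against wild-type cells no member passed in KO+f, while Gadd45b fell and Sertad1 rose in KO+s. In KO+f against WT+EV 0 of 8 members passed by either edgeR or DESeq2 (9.97% and 15.3% of genes), and only Gadd45b had an unadjusted p under 0.05 (27.4% of genes), at -0.62 ± 0.24 (adjusted p = 0.124). Without KO+f replicate 3 it passed, at -0.999 (adjusted p = 0.00746). Gadd45a was at -0.65 ± 0.40 (adjusted p = 0.321), Ccng1 at -0.50 ± 0.29 (0.282) and Trp53 at -0.17 ± 0.31 (0.759). Gadd45g (0.08 ± 0.63), Gdf15 (-0.09 ± 0.40), Sertad1 (0.02 ± 0.21) and Mdm2 (0.01 ± 0.18) had adjusted p from 0.909 to 0.984, and the ranges of all 8 members overlapped (31.5% of genes did not). In KO+s against WT+EV 2 of 8 passed by edgeR and by DESeq2 (23.7% and 25.8% of genes): Gadd45b fell by 0.89 ± 0.24 (1.85-fold; adjusted p = 0.0217) and Sertad1 rose by 0.63 ± 0.21 (1.55-fold; adjusted p = 0.0485). The Gadd45b call was lost without WT+EV replicate 1 (adjusted p = 0.0916), KO+s replicate 1 (0.0747) or KO+s replicate 2 (0.0812). That of Sertad1, whose ranges overlapped, was lost without any WT+EV library (0.137, 0.118 and 0.0505 for replicates 1 to 3), KO+s replicate 1 (0.171) or KO+s replicate 3 (0.148). It was also lost with these groups fitted alone (0.0569) and without the filter on low counts (0.068). Ccng1 was at -0.46 ± 0.29 (adjusted p = 0.269), Gadd45a at 0.37 ± 0.40 (0.529) and Mdm2 at 0.23 ± 0.18 (0.368). Gadd45g (0.17 ± 0.63), Gdf15 (0.16 ± 0.40) and Trp53 (-0.05 ± 0.31) had adjusted p from 0.802 to 0.930. Gadd45b was the 1 member whose ranges did not overlap, against 45.5% of genes. These comparisons share the WT+EV libraries with KO+EV against WT+EV.

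**Figure D2:**
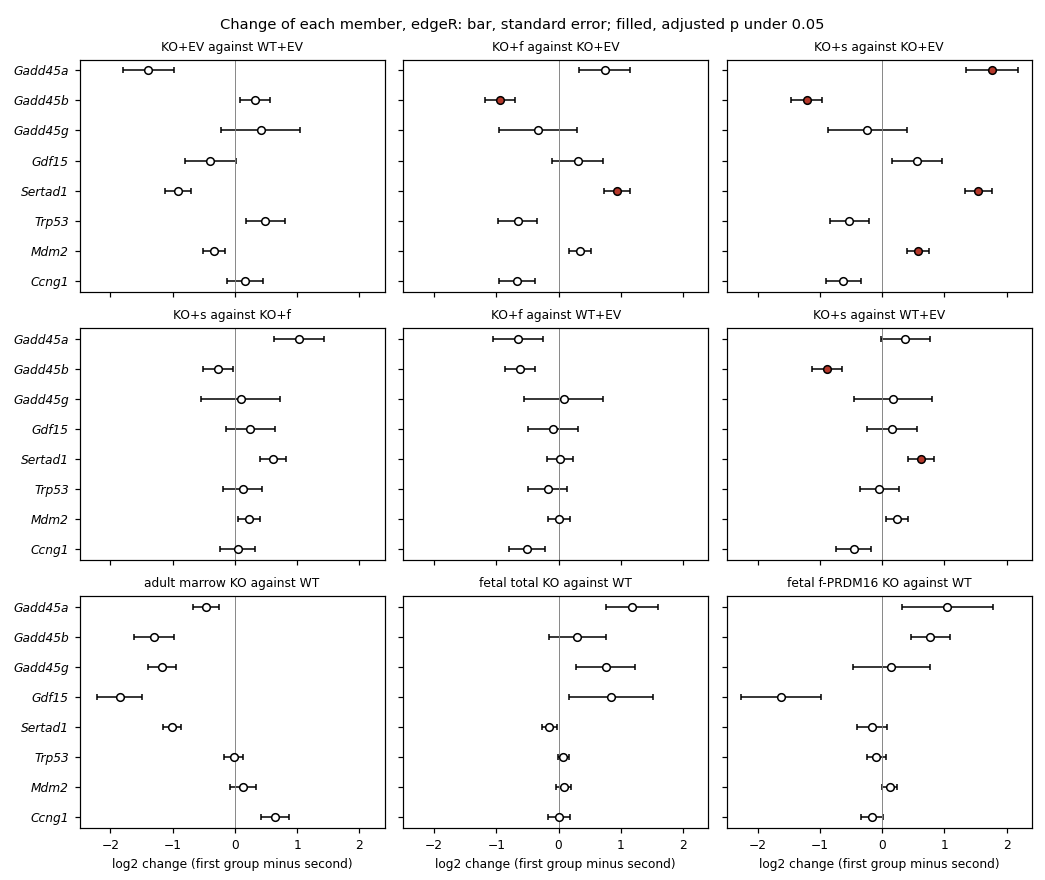
Fitted log2 change of each member in the 9 pairwise comparisons, first group minus second, with standard errors; filled points passed an adjusted p of 0.05 in edgeR. Filled points occur in 3 leukaemia comparisons, and the GADD45 genes, Gdf15 and Sertad1 lie to the left of zero in adult marrow.

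Part of the immediate early genes fell without PRDM16 and rose with either add-back, and markers of other myeloid cells also differed between the groups. Of 23 immediate early genes tested, 6 fell and 0 rose in KO+EV against WT+EV (median -2.02), 8 rose and 0 fell in KO+f against KO+EV (1.29), and 18 rose and 0 fell in KO+s against KO+EV (2.04). Their summed level was 2723 to 7475 CPM in WT+EV, 568 to 2015 in KO+EV, 1505 to 4739 in KO+f and 3985 to 6663 in KO+s, with none of the 24 at 0. Their leading genes were Nr4a1 (-2.22 ± 0.37), Ier2 (-1.41 ± 0.24) and Atf3 (-4.01 ± 0.68) without PRDM16, Dusp5 (4.31 ± 0.61), Nr4a1 (1.95 ± 0.37) and Dusp2 (2.16 ± 0.43) with f-PRDM16, and Ier5 (2.60 ± 0.33), Dusp5 (4.31 ± 0.61) and Ier2 (1.58 ± 0.24) with s-PRDM16 against KO+EV. Ier5 rose in KO+s against KO+f, and against WT+EV Dusp5 rose and Egr2 fell in KO+f and Dusp5 and Dusp2 rose in KO+s. The granulocyte markers summed to 10359 to 17966 CPM in WT+EV, 13212 to 54503 in KO+EV, 12774 to 18027 in KO+f and 24306 to 27277 in KO+s, with none of the 14 found at 0. Of these 14, 6 fell and 1 rose without PRDM16, 1 rose and 0 fell with f-PRDM16 (median -0.04), and 9 rose and 1 fell with s-PRDM16. Without PRDM16 Itgb2l, S100a9 and Mmp9 led the falls and Ctsg rose (1.03 ± 0.22). Mmp9 rose with f-PRDM16, and S100a9 (4.81 ± 0.49), Itgb2l and Mmp9 led the rises and Ctsg fell by 0.62 ± 0.22 with s-PRDM16. In KO+s against KO+f 7 rose, led by S100a9, Itgb2l and S100a8. Against WT+EV Ngp, Itgb2l and Camp fell in KO+f, and S100a9 and S100a8 rose in KO+s. The 12 monocyte and macrophage markers, none at 0, summed to 1374 to 1782 CPM in WT+EV, 687 to 1247 in KO+EV, 1163 to 1999 in KO+f and 3169 to 3346 in KO+s. Against KO+EV 5 of them rose in KO+f, led by Cx3cr1, Ctss and Csf1r, and 8 in KO+s, led by Cx3cr1, Itgam and Cybb. Itgam and Emr1 rose in KO+s against KO+f, and against WT+EV Cx3cr1 rose and Itgam fell in KO+f, and 4 rose in KO+s, led by Cx3cr1, Cybb and Itgam. Of all genes, 2.1% passed in KO+EV against WT+EV, 11.3% in KO+f and 32.4% in KO+s against KO+EV, and 3.81% in KO+s against KO+f. Against WT+EV 9.97% passed in KO+f and 23.7% in KO+s. The part of any of these lists in the members' changes was not tested. Without KO+EV replicate 3, the library with the high granulocyte marker sum, Gadd45a, Gadd45b, Sertad1 and Mdm2 passed in KO+s against KO+EV. The other KO+EV libraries (13212 and 13234 CPM) also lay below every KO+s library in that sum. Cell make-up was therefore not tested by leaving replicate 3 out.

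The wider list of p53 targets passed in both directions. Of 29 other p53 targets tested, 0 rose and 1 fell in KO+EV against WT+EV (median -0.04, all genes 0.00), with 2 higher and 6 lower at an unadjusted p under 0.05. The summed level of the targets was 1512 to 1566 CPM in KO+EV, below all libraries of the other groups (1741 to 2066). The one that fell was the polo-like kinase Plk3, at -2.90 ± 0.58 (adjusted p = 0.0360). With f-PRDM16 against KO+EV, 2 rose and 1 fell (median 0.04, all genes -0.01), where 11.3% of all genes passed. The stress-induced sestrin Sesn1 rose by 0.98 ± 0.23 (adjusted p = 0.0229) and the DNA damage sensor Xpc by 0.79 ± 0.21 (0.0351). The metabolic p53 target Tigar, listed under its older symbol 9630033F20Rik, fell by 0.87 ± 0.12 (0.00236). With s-PRDM16 against KO+EV, 9 rose and 9 fell (median 0.08, all genes -0.01), where 32.4% of all genes passed. The pro-apoptotic Bbc3 (PUMA) rose by 1.57 ± 0.31 (0.00331), from 4.83 ± 1.28 to 13.6 ± 2.99 CPM (SD, n = 3), Plk3 by 2.37 ± 0.57 (0.00951) and Xpc by 0.95 ± 0.21 (0.00603). Tigar fell by 1.30 ± 0.12 (9.26e-05), the death receptor Tnfrsf10b by 2.08 ± 0.33 (0.0011) and Cd82 by 0.65 ± 0.18 (0.017). In KO+s against KO+f 0 of 29 passed edgeR (6 at an unadjusted p under 0.05, 1 higher and 5 lower), and 3 fell by DESeq2 (Tigar, Tnfrsf10b and Lrdd, the older symbol of Pidd1). DESeq2 counted 0 rising and 3 falling without PRDM16 (Plk3, Btg2 and Bbc3), where it passed 6.12% of all genes. Of these, Btg2 is also on the immediate early list. Against KO+EV, DESeq2 counted 6 rising and 2 falling with f-PRDM16, and 9 and 11 with s-PRDM16. It passed 16.1% and 33.4% of all genes there. Against WT+EV, 2 rose and 1 fell in KO+f, and 2 rose and 5 fell in KO+s, with Trp53inp1 and Sesn1 higher and Tigar lower in both add-backs, and Cd82 and Tnfrsf10b lower in KO+s.

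Few genes that act on p53 passed. Of 18 tested, 0 passed edgeR without PRDM16 (3 at an unadjusted p under 0.05, and 1, Hipk2, lower by DESeq2), while 2 rose with f-PRDM16 and 3 with s-PRDM16 against KO+EV. In these comparisons edgeR passed 2.1%, 11.3% and 32.4% of all genes, so the regulators' counts were near or below those shares. Hipk2, a kinase that phosphorylates p53, rose by 1.38 ± 0.34 (adjusted p = 0.0260) with f-PRDM16 and by 1.76 ± 0.34 (0.0032) with s-PRDM16. Ccng2, the relative of Ccng1, rose by 0.54 ± 0.14 (0.0295) and 0.45 ± 0.14 (0.0254). Rfwd2, the older symbol of the p53 ubiquitin ligase Cop1, rose by 0.40 ± 0.12 (0.0270) with s-PRDM16. Against WT+EV the checkpoint kinase Chek1 fell in both add-backs, by 0.78 ± 0.23 (0.0493) in KO+f and 0.85 ± 0.23 (0.0185) in KO+s.

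Genes linked to GADD45 and SERTAD1 passed in a few places. The 14 stress-kinase and cell-cycle genes tested are linked to GADD45, but not all of them encode proteins that it binds. Of these, 0 passed edgeR without PRDM16 (1 at an unadjusted p under 0.05, and 1, Mapk13, lower by DESeq2). With f-PRDM16 against KO+EV 2 rose, and with s-PRDM16 2 rose and 1 fell, where 11.3% and 32.4% of all genes passed. Mapk8 (JNK1) rose by 1.00 ± 0.11 (adjusted p = 0.000917) and 1.09 ± 0.12 (0.000134), and Map3k5 (ASK1) by 2.69 ± 0.49 (0.00815) and 2.63 ± 0.49 (0.00266). Ccnb1, a subunit of the CDK1-cyclin B complex, fell by 0.95 ± 0.19 (0.00349) with s-PRDM16. Against WT+EV Mapk8 and Map3k5 rose in both add-backs, and 4 rose in KO+s, Map2k4 among them. Among 14 SERTAD and E2F partners the D-type cyclins passed in several comparisons. Ccnd3 fell by 0.87 ± 0.18 (0.0394) without PRDM16 and rose by 0.74 ± 0.18 (0.00997) with s-PRDM16. Ccnd2 rose by 3.47 ± 0.72 (0.0144) with f-PRDM16 and 3.13 ± 0.71 (0.00718) with s-PRDM16, with a wide spread between libraries (57.3 ± 51.1 and 41.6 ± 29.3 CPM). Ccnd1 rose by 3.25 ± 0.68 (0.00485) with s-PRDM16, with as wide a spread (33.4 ± 33.9 CPM). Tfdp1, the dimer partner of E2F, fell by 0.50 ± 0.15 (0.0462) with f-PRDM16. E2f4 fell by 0.65 ± 0.11 (0.00187) and Cdca4, a SERTAD family member, fell by 0.79 ± 0.17 (0.00438) with s-PRDM16. Cdk4, the kinase SERTAD1 binds, fell by 0.84 ± 0.20 (0.00819) with s-PRDM16. In all, 1 of the 14 fell without PRDM16, 1 rose and 1 fell with f-PRDM16, and 5 rose and 4 fell with s-PRDM16 against KO+EV. The shares of all genes passing there were 2.1%, 11.3% and 32.4%. Ccnd3 and Rb1 rose in KO+s against KO+f. Against WT+EV Ccnd2 and Tfdp2 rose and Ccnd3, Tfdp1 and Rb1 fell in KO+f, and Ccnd2 and Ccnd1 rose and Tfdp1 fell in KO+s.

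The integrated stress response list passed in few places. Of 23 tested, 1 fell without PRDM16, 0 passed edgeR with f-PRDM16 (9 at an unadjusted p under 0.05, and 5 higher and 1 lower by DESeq2), and 5 rose and 2 fell with s-PRDM16 against KO+EV, near the 32.4% of all genes. Atf3, a stress-induced transcription factor that is also on the immediate early list, fell by 4.01 ± 0.68 (adjusted p = 0.0237) without PRDM16 and rose by 4.01 ± 0.68 (0.00184) with s-PRDM16. Ppp1r15a, also known as Gadd34, rose by 2.63 ± 0.58 (0.00651) and Ddit3 (CHOP) by 1.29 ± 0.37 (0.0212). Of the amino acid synthesis enzymes, Asns fell by 2.75 ± 0.51 (0.0027) and Psat1 fell by 1.69 ± 0.32 (0.00277). Against WT+EV Cebpb fell in KO+f, and in KO+s Xbp1 and Nupr1 rose and Psat1, Asns and Trib3 fell.

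**Figure D3:**
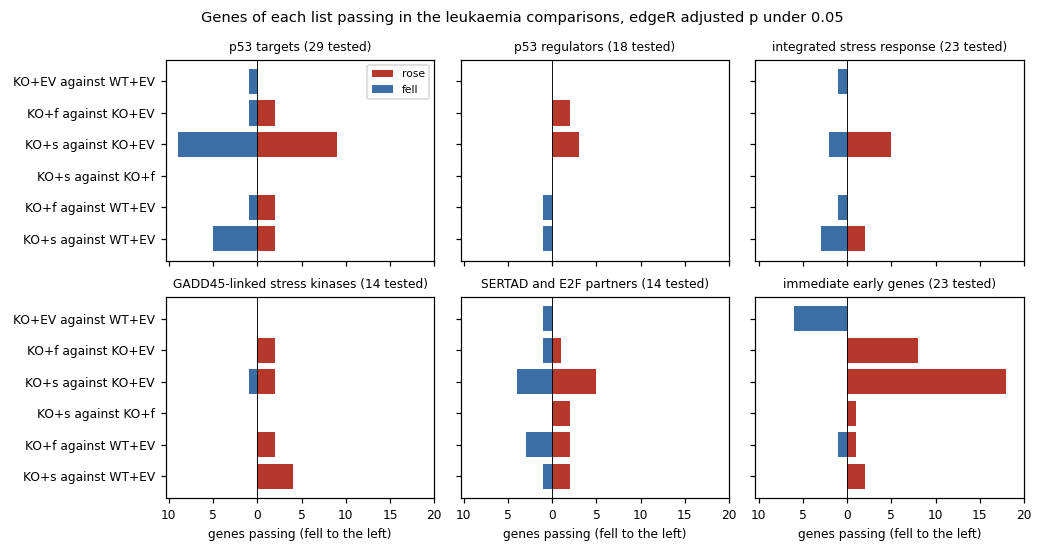
Number of genes of each list that rose (right) or fell (left) at an adjusted p of 0.05 in edgeR, for the 6 leukaemia comparisons. The p53 targets passed most often in KO+s against KO+EV and there in equal number in both directions, while the immediate early genes passed in 1 direction in each comparison with KO+EV.

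In adult marrow HSCs, 5 of the 8 members had lower values in libraries labelled knockout, but none passed edgeR's adjusted test. Sertad1 was at 130, 140, 116 and 128 CPM in wild type and 53.4, 64.8, 73.3 and 63.6 in knockout, with a wide gap between the groups. Gdf15 was at 17.5, 29.9, 9.90 and 11.6 CPM against 4.09, 5.85, 4.85 and 4.29, and the wild-type libraries were the scattered ones. Gadd45g was at 28.1, 26.9, 17.2 and 23.8 CPM against 10.1, 11.5, 11.4 and 9.40, again without overlap.

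Gadd45b was at 49.1, 25.8, 33.1 and 15.5 CPM in wild type and 11.8, 12.4, 16.7 and 8.95 in knockout, so wild-type replicate 4 fell inside the knockout range. Gadd45a, at 36.4, 36.2, 29.3 and 26.8 CPM against 21.6, 23.7, 17.5 and 29.9, overlapped through knockout replicate 4. The p53 genes showed little difference or the opposite one. Trp53 was at 265, 386, 321 and 393 CPM against 324, 351, 344 and 330, the knockout libraries lying inside the wild-type range. Mdm2 was at 129, 76.3, 77.4 and 60.9 CPM against 101, 74.0, 104 and 95.5, and overlapped widely. Cyclin G1 (Ccng1) was at 156, 65.9, 125 and 87.9 CPM against 188, 140, 179 and 169, mostly higher in knockout.

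In that comparison 0% of 13495 genes passed edgeR's adjusted test, members included. The log2 change was -1.01 ± 0.15 for Sertad1 (adjusted p = 0.272), -1.18 ± 0.22 for Gadd45g (adjusted p = 0.478), -1.85 ± 0.36 for Gdf15 (adjusted p = 0.478) and -1.30 ± 0.32 for Gadd45b (adjusted p = 0.478). Gadd45a was at -0.47 ± 0.21 (adjusted p = 0.585), Ccng1 at 0.64 ± 0.23 (adjusted p = 0.534), Mdm2 at 0.13 ± 0.21 and Trp53 at -0.02 ± 0.16. At an unadjusted p under 0.05, 6 members counted, 5 lower and 1 higher, against 3.64% of genes lower and 4.82% higher. Sertad1, Gadd45g and Gdf15, 3 of the 8, were lower without overlap, against 2.76% of genes lower and 5.82% in either direction. DESeq2 passed 4 members, Sertad1 (adjusted p = 3.63e-07), Gadd45g (0.000494), Gdf15 (0.00149) and Gadd45b (0.0319), among the 0.491% of genes it passed. Over the 8 fits that left out 1 library, edgeR's adjusted p for Sertad1 was 0.0754 to 0.852 and its log2 change -1.08 to -0.93. The members' median was -0.74 and that of all genes -0.03.

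**Figure D4:**
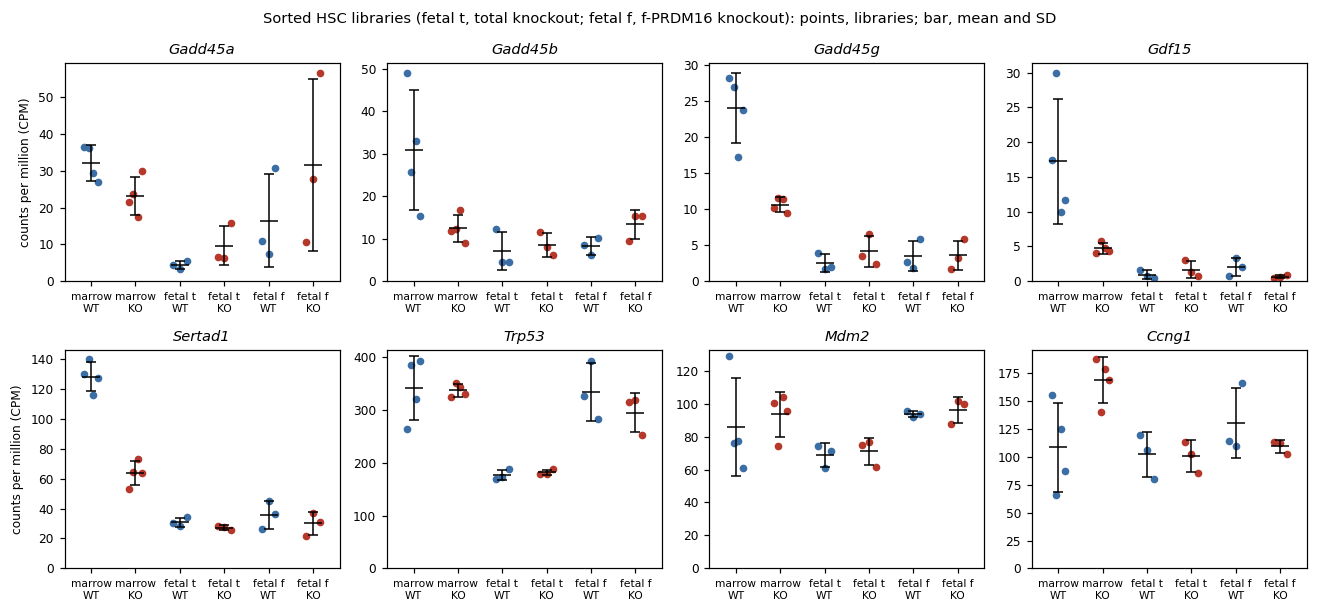
CPM of the 8 members in the 20 HSC libraries, 1 panel per gene, with points for libraries and bars for the mean and SD, by tissue, knockout and genotype label. Sertad1, Gadd45g and Gdf15 are highest in wild-type marrow, next in knockout marrow, and low in all 4 fetal groups.

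Most immediate early genes also had lower values in marrow libraries labelled knockout. Of 24 tested, 0 passed edgeR and 7 fell by DESeq2, 23 were lower in knockout and 18 of them at an unadjusted p under 0.05, with a median of -1.02 against -0.03 for all genes. Their summed level was 30011, 28715, 21469 and 12779 CPM in wild-type replicates 1 to 4 and 11865, 12353, 15077 and 12233 in knockout, so wild-type replicate 4 was in the knockout range, as it was for Gadd45b. For Sertad1, Gadd45g and Gdf15 that library was at 128, 23.8 and 11.6 CPM, above every knockout library, but it is 1 library only. The part of immediate early expression in the members' values was not tested. The granulocyte markers summed to 559 to 716 CPM in wild type and 371 to 1782 in knockout, with none of the 14 at 0. The p53 target, p53 regulator, integrated stress response, stress-kinase and SERTAD lists had 0 genes passing edgeR in marrow. At an unadjusted p under 0.05 the counts were 4 of 32, 2 of 17, 8 of 22, 0 of 15 and 3 of 14. DESeq2 passed Btg2 among the p53 targets and Atf4 and Ddit3 in the integrated stress response, all lower, and 0 in the other 3 lists. Btg2 is also on the immediate early list. The median of the p53 targets was -0.07.

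In fetal liver HSCs no member passed in either knockout, with or without the replicate number as a block. The values below come from fits without that block unless it is named. Gadd45a had 4.30, 3.44 and 5.56 CPM in wild type and 6.71, 6.45 and 15.9 in the total knockout, higher in all 3 knockout libraries with replicate 3 far above. Its log2 change was 1.18 ± 0.42 (adjusted p = 1), and 1.07 with the replicate number as a block (adjusted p = 0.0903). No member passed among the 0% of 15590 genes that did, and only Gadd45a had an unadjusted p under 0.05 (4.74% of genes). It was also the 1 member without overlap, against 11% of genes. With the block 1.13% of genes passed and still 0 members, as with DESeq2 (0.501% of genes). Between libraries of the same number, Gadd45a and Gdf15 were higher and Sertad1 lower in knockout in 3 of 3 pairs. Gadd45b was at 12.4, 4.56 and 4.42 CPM against 11.7, 7.95 and 6.10 and Gadd45g at 3.89, 1.70 and 1.93 against 3.48, 6.57 and 2.39, with wide overlap in both. Gdf15 was at 1.65, 0.796 and 0.421 CPM against 2.99, 1.31 and 0.689, that is 14 to 98 counts a library. Sertad1, at 30.1, 28.1 and 34.4 CPM against 28.3, 27.7 and 25.4, gave a change of -0.15 ± 0.12. Trp53 (0.08 ± 0.09), Mdm2 (0.08 ± 0.12) and Ccng1 (0.01 ± 0.17) were almost level, at 170 to 188, 60.9 to 76.8 and 80.7 to 120 CPM over the 6 libraries.

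In the f-PRDM16 knockout, Gadd45a was at 11.02, 7.35 and 30.8 CPM in wild type and 10.5, 27.7 and 56.6 in knockout. The spread within each group exceeded the difference between them (1.05 ± 0.73, adjusted p = 0.999). Gdf15 had 0.775, 3.36 and 2.08 CPM against 0.412, 0.601 and 0.834, a change of -1.63 ± 0.64 (adjusted p = 0.999) on 15 to 149 counts. Gadd45b was at 8.55, 6.13 and 10.3 CPM against 9.42, 15.4 and 15.4 (0.77 ± 0.31, adjusted p = 0.999). These last 2 were the members with an unadjusted p under 0.05, against 2.62% of genes, and, like the other 6, both overlapped between the groups (7.31% of genes did not). No member passed by edgeR (0% of 13631 genes) or DESeq2 (0.0223%). Gadd45g, at 2.66, 1.87 and 5.83 CPM against 1.70, 3.25 and 5.79, was at 0.15 ± 0.61. Sertad1 (21.8 to 44.9 CPM), Trp53 (252 to 393), Mdm2 (87.4 to 102) and Ccng1 (102 to 167) had log2 changes between -0.17 and 0.12. Between libraries of the same number, Gadd45b was higher and Gdf15, Sertad1 and Trp53 lower in knockout in 3 of 3 pairs. With the number as a block still 0 members passed, with adjusted p = 0.344 for Gdf15 (-1.50 ± 0.51) and 0.347 for Gadd45b (0.77 ± 0.26).

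Granulocyte transcripts and Gadd45a had the same highest library in each fetal table, knockout replicate 3. The summed markers were 175, 276 and 1828 CPM in wild-type and 777, 1510 and 13483 in total-knockout replicates 1 to 3, and 7303, 3507 and 21565 in wild-type and 7867, 32361 and 47776 in f-PRDM16-knockout replicates. In the f-PRDM16 table both the sum and Gadd45a were highest in knockout replicate 3 and lowest in wild-type replicate 2, and wild-type replicate 3 and knockout replicate 2 came next below the top. In the total-knockout table the orders differed below the top: wild-type replicate 3 had the second highest sum but less Gadd45a than every knockout library, and wild-type replicate 1 had the lowest sum but more Gadd45a than replicate 2. All 14 markers tested were higher in knockout in each table, 0 passed edgeR (6 and 1 at an unadjusted p under 0.05; 1 and 0 by DESeq2), and none was at 0. With the replicate block 8 of them rose in the total knockout. The 12 HSC markers were lower in 11 and in 12 cases. Whether Gadd45a counts came from granulocytic cells was not tested. On the opposite strand E230016M11Rik shares 337 exon bases with Gadd45a in GENCODE M21, and the strand of counting is not given. It was at 0.422 to 1.41 CPM in leukaemia, 5.38 to 14.2 in marrow and 2.43 to 15.8 in fetal libraries, so Gadd45a counts are uncertain by reads that the pair may share. Immediate early genes gave a median of 0.00 in the total knockout and -0.34 in the f-PRDM16 knockout, and 0 of them passed edgeR, with 0 at an unadjusted p under 0.05 and 0 by DESeq2. The 5 stress lists likewise had 0 genes passing edgeR or DESeq2 in both fetal knockouts, with 3 genes at an unadjusted p under 0.05 in the total knockout and 1 in the f-PRDM16 knockout. With the block 1 p53 regulator, Mdm4, fell in the total knockout.

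The HSC effects were then compared with each other through interaction terms. For the adult marrow effect minus the total-knockout fetal effect, 0 members passed edgeR (0.00627% of genes) and 5 had an unadjusted p under 0.05, all negative, against 4.08% of genes negative. These were Sertad1 at -0.83 ± 0.19, Gadd45g at -1.91 ± 0.49, Gadd45a at -1.62 ± 0.46, Gdf15 at -2.66 ± 0.75 and Gadd45b at -1.58 ± 0.57, with adjusted p of 0.58 to 0.592. Ccng1 was at 0.66 ± 0.32, Mdm2 at 0.08 ± 0.28 and Trp53 at -0.07 ± 0.21 (adjusted p from 0.636 to 0.982). DESeq2 passed Sertad1 (adjusted p = 0.00837) and Gadd45g (0.0425) among 0.227% of genes. The immediate early genes were negative in 24 of 24 cases there, with a median of -0.92. Between the 2 fetal knockouts 0 members and 0% of genes passed (edgeR and DESeq2). Gdf15 alone had an unadjusted p under 0.05 (2.12% of genes), at 2.47 ± 0.97 (adjusted p = 1). The other 7 members were between -0.45 and 0.63. The marrow and fetal values come from separate tables, and tissue and table cannot be told apart.

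Across all 10 groups, levels were ordered by group mean in CPM, with no test because the groups come from separate tables. Sertad1 was highest in wild-type marrow (128 ± 9.98 CPM, SD, n = 4), next in knockout marrow (63.8 ± 8.16) and then in wild-type fetal HSCs of the f-PRDM16 table (35.9 ± 9.28), and these 3 did not overlap. It was lowest in KO+EV (8.66 ± 0.912). Gdf15 had the same top order, at 17.2 ± 9.04, 4.77 ± 0.79 and 2.07 ± 1.29 CPM, and Gadd45g was at 24.0 ± 4.86 and 10.6 ± 1.02 CPM in wild-type and knockout marrow. Gadd45b led in wild-type marrow too (30.9 ± 14.1 CPM) but overlapped KO+EV (29.9 ± 1.28), and none of its 9 pairs of neighbours in the order stood apart. Gadd45a was highest in KO+s (44.1 ± 9.35) and lowest in wild-type fetal HSCs of the total-knockout table (4.44 ± 1.07). Trp53 was highest in marrow (341 ± 60.3 and 337 ± 12.7 CPM) and lowest in KO+f (96.2 ± 45.2). Ccng1 was highest in KO+EV (238 ± 82.4) and lowest in the total-knockout fetal table (102 ± 20.04 and 101 ± 14.2), with overlap throughout its order. Mdm2 kept the narrowest range of group means by ratio, 68.9 ± 7.06 to 119 ± 14.6 CPM. In the total-knockout fetal table Gm-numbered genes took 9.27 to 10.3% of counts, and leaving them out raised wild-type Sertad1 to 34.3, Trp53 to 197 and Mdm2 to 76.6 CPM. Trp53 also has a processed pseudogene on chromosome 17, so its counts are uncertain by shared reads.

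Set on a per-length scale (CPM per kb of exon), the GADD45 family differed in make-up between groups. Gadd45a made up 47.2 ± 16.7% of the summed level of the 3 genes in WT+EV, 23.6 ± 9.58% in KO+EV, 46.0 ± 12.5% in KO+f and 65.1 ± 0.19% in KO+s (SD, n = 3). Gadd45b, the other large share, was 39.0 ± 14.1%, 56.0 ± 7.04%, 33.9 ± 11.7% and 20.3 ± 3.02%. KO+EV was led by Gadd45b and KO+s by Gadd45a in every library, without overlap between them. In wild-type marrow the 3 genes were near equal, at 31.8 ± 3.16%, 32.4 ± 9.58% and 35.8 ± 7.39% for Gadd45a, Gadd45b and Gadd45g, the largest Gadd45g share of the 10 groups. In knockout marrow Gadd45a was 43.7 ± 9.17%, although its own mean was lower there (23.2 against 32.2 CPM). Gadd45g was smallest in f-PRDM16-knockout fetal HSCs, at 10.4 ± 0.538%, below every wild-type library of that table (16.3 to 17.2%). Its own mean was alike in both groups, at 3.45 CPM in wild type and 3.58 in knockout. The means of Gadd45a (16.4 and 31.6 CPM) and Gadd45b (8.32 and 13.4) were higher in knockout, so the smaller share is not a lower Gadd45g level.

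**Figure D5:**
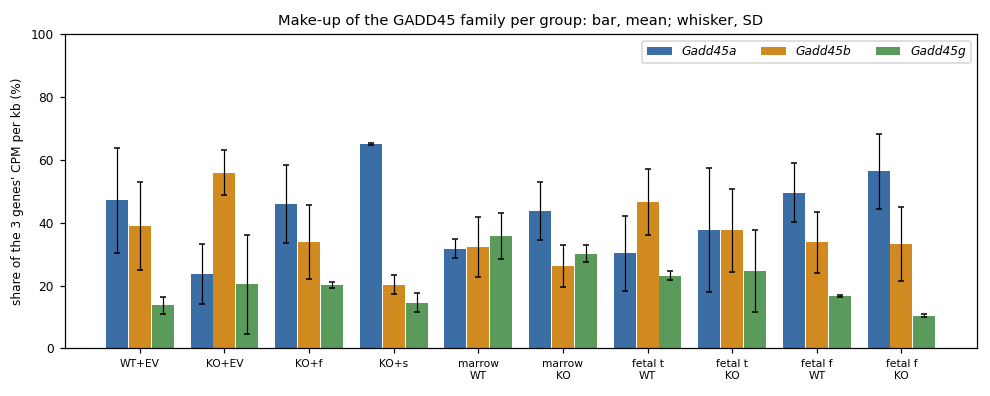
Share of each GADD45 gene in the summed CPM per kb of the 3 genes, mean and SD per group. Gadd45a is 23.6% in KO+EV and 65.1% in KO+s, and the 3 shares are closest to each other in wild-type marrow.

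The genes most like each member were found by Pearson's r of log2 CPM over 12 leukaemia libraries, and over 20 HSC libraries after subtracting table means. They are descriptions over libraries that share depth and group. In leukaemia Gadd45a was closest to H3f3b (0.96) and the anti-proliferative gene Btg2 (0.96), Gadd45b to Timm23 (0.97) and Kif15 (0.96), Sertad1 to Stk17b (0.97), Gadd45g to Lfng (0.90), Trp53 to Mmachc (0.96), Mdm2 to Golph3 (0.96) and Ccng1 to Sgpp1 (0.95). Gdf15 was too low to be searched there. In HSCs Gadd45a was closest to Sp140 (0.97), Plaur (0.94) and Dok3 (0.94). Gadd45b was closest to Dhrs3 (0.85), Btg2 (0.83) and the CDK inhibitor Cdkn1a (0.79), Gadd45g to Tmc6 (0.85), Gdf15 to Nav1 (0.84) and Jund (0.79), and Sertad1 to Renbp (0.88) and the ubiquitin gene Ubb (0.84). Trp53 was closest to Cdk4 (0.93), Mdm2 to Kansl1 (0.86) and Ccng1 to Lin7c (0.93). Btg2 was among the 3 likest genes of Gadd45a in leukaemia and of Gadd45b in HSCs.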

How the data were processed

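RNA was measured by sequencing in 32 mouse libraries of 10 groups. The values used are raw gene counts as deposited by the authors in 4 tables, 1 for leukaemia and 3 for HSCs. Per the submitters' processing notes, bcl2fastq 2.17, TopHat, DESeq and the mm9 build were used. The counting tool, annotation and strand are not given in the sources used here. Per the labels' protocols, libraries were poly-A selected (TruSeq), and HSC RNA was first amplified with a low-input kit. That amplification and the separate tables limit comparison of levels between tables.

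The members and gene lists were chosen with earlier results of these data known. Every column matched 1 sample, and none of 124 pairs of libraries within a table agreed within sampling noise (lowest chi-square per degree of freedom 11.6). Spike-in entries (92 in each of 2 tables, with 0 and 1 counts) were left out. CPM is the count per 1000000 counts of genes in the library. The leukaemia groups were fitted together and each HSC table alone, in R 4.3.3. edgeR 4.0.16 removed low genes (filterByExpr), scaled by TMM and ran its robust quasi-likelihood test, two-sided, with Benjamini-Hochberg adjustment over all genes and a threshold of 0.05. The standard error is the size of the log2 change over the square root of F. Interactions came from joint fits of 2 tables. Alternatives were DESeq2 1.42.0, other size factors, no filter, 2 groups alone, a replicate block, and leaving out each library. The test was also run on simulated counts drawn independently for each library. These held no pairing and no outlying libraries, so they do not check the test under those conditions. Genes tested numbered 12958, 13495, 15590 and 13631.

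The labels number replicates without saying what a number shares. Deviations from group means of same-numbered libraries correlated at 0.460 to 0.788 in the total-knockout fetal table and 0.425 to 0.744 in the f-PRDM16 table. All were over 0.1, so the number was taken as a pairing there. The main fetal fits and both interactions had no block, so their standard errors and p-values leave this pairing out. Blocked values are given where they move a count or bear on a member with an unadjusted p under 0.05.

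All 8 members are named in every comparison except between the fetal knockouts, where only Gdf15 is named and the others are given as a range. Of the other stress lists and the immediate early, granulocyte and monocyte lists, up to 3 passing genes per direction and comparison with the smallest p were named, the remaining cell type lists were used only to check the samples, and counts of 5 or fewer by DESeq2 were named after their values were seen. The 3 likest genes per member had to have a mean log2 CPM of at least 3. Lengths are exon unions of GENCODE M21, and promoters are RefSeq windows on GRCm38.p6, matched by symbol for all 8. Figures and tables used Python 3.11.15, pandas 2.3.3 and matplotlib 3.10.9.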

Additional observations from a re-analysis of the deposited data

How the results depend on the processing

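Depth limited Gdf15 most, with 6 to 17 counts in each leukaemia library, and with 3 or 4 libraries a group single libraries decided several calls. The cause of the changes below was not tested.
DESeq2 passed 2 members in KO+EV against WT+EV, 4 in adult marrow and 2 in the adult minus fetal interaction, where edgeR passed 0. Over all genes it passed 900 (KO+EV against WT+EV), 2247 (KO+f against KO+EV), 1394 (KO+s against KO+f), 2070 (KO+f against WT+EV), 82 (adult marrow), 77 (fetal total), 4 (fetal f-PRDM16) and 38 (adult minus fetal), against 272, 1461, 494, 1292, 0, 0, 0 and 1. Fitted as 2 groups alone, 0 members passed in KO+f against KO+EV, 1 in KO+s against KO+f and 1 in KO+s against WT+EV, and over all genes 1 in KO+EV against WT+EV and 392 in KO+f against KO+EV. Without the filter 1 member passed in KO+s against WT+EV. These fits left the members' counts in the other comparisons within 1.5 times.
In leukaemia and adult marrow, same-numbered libraries correlated at -0.24 to 0.31 and -0.04 to 0.22. Not all of these were over 0.1, so the number was not taken as a pairing. Of the libraries, 8 of 12 in leukaemia and 4 of 8 in marrow correlated best with their own number. That compares with 4 of 6 in the total-knockout and 6 of 6 in the f-PRDM16 fetal table, so a pairing in leukaemia is not excluded. With the replicate block Sertad1 passed in KO+EV against WT+EV (adjusted p = 0.0432; 1 member), and Ccng1 passed in KO+f (0.0389) and KO+s (0.019) against KO+EV, among 195, 1442 and 4177 genes. In fetal total knockouts the block passed 176 genes in place of 0, and 0 in the adult minus fetal interaction in place of 1; it changed no other count by over 1.5 times and no member's call in the HSC comparisons.
Signs of values near zero flipped for Mdm2 in KO+f against WT+EV with the block (-0.00088), Trp53 in marrow without the filter (0.0070) and Sertad1 in the fetal interaction with RLE size factors (-0.0047) or DESeq2 (-0.0044).
Leaving out 1 library, the members passing ranged from 0 to 2 in KO+f against KO+EV, 0 to 1 in KO+f against WT+EV and 0 to 1 in KO+s against WT+EV. Over all genes the counts were 26 to 425 (KO+EV against WT+EV), 559 to 1533 (KO+f against KO+EV), 2732 to 3821 (KO+s against KO+EV), 37 to 388 (KO+s against KO+f), 559 to 1071 (KO+f against WT+EV), 1765 to 2467 (KO+s against WT+EV), 0 to 3 (adult marrow), 0 to 3 (fetal interaction) and 0 to 2 (adult minus fetal). The log2 changes that took both signs, none of them passing, were as follows. In KO+EV against WT+EV these were Gadd45g (-0.15 to 0.94) and Ccng1 (-0.22 to 0.34). In KO+f and KO+s against KO+EV it was Gadd45g (-0.85 to 0.23 and -0.77 to 0.32). KO+s against KO+f had Gadd45b (-0.46 to 0.11), Gadd45g (-0.11 to 0.40), Trp53 (-0.22 to 0.38) and Ccng1 (-0.24 to 0.18). KO+f against WT+EV had Gadd45g (-0.011 to 0.19), Gdf15 (-0.35 to 0.22), Sertad1 (-0.092 to 0.14), Trp53 (-0.41 to 0.17) and Mdm2 (-0.18 to 0.12). KO+s against WT+EV had Gadd45g (-0.019 to 0.48), Gdf15 (-0.10 to 0.47) and Trp53 (-0.15 to 0.067). Adult marrow had Trp53 (-0.14 to 0.062) and Mdm2 (-0.0025 to 0.37), and fetal total had Ccng1 (-0.14 to 0.14). The f-PRDM16 knockout had Gadd45g (-0.41 to 0.74), Sertad1 (-0.31 to 0.020), Trp53 (-0.20 to 0.0045) and Ccng1 (-0.30 to 0.040). In the fetal interaction they were Gadd45a (-0.67 to 0.87), Gadd45b (-0.70 to 0.19), Sertad1 (-0.16 to 0.18), Mdm2 (-0.11 to 0.027) and Ccng1 (-0.024 to 0.33). In the adult minus fetal interaction they were Trp53 (-0.19 to 0.015) and Mdm2 (-0.045 to 0.32).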
